A study of Mus musculus with 16 samples.

Results

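Transcripts of the enzymes that make serine and pass its carbon to folate were followed in the liver of male mice kept on a high-fat diet for 12 weeks. The 9 enzymes were taken by gene symbol, as Phgdh, Psat1, Psph, Shmt1, Shmt2, Mthfd1, Mthfd1l, Mthfd2 and Aldh1l2, out of 25803 genes in the count tables, and each symbol matched 1 gene. Poly-A RNA of 16 livers was sequenced, 4 in each of 4 groups: control mice after a 16 h fast, mice with ablation of hepatic Cpt1a (labelled LKO) after the same fast, and both genotypes after the fast and 6 h of refeeding. Cpt1a encodes the carnitine palmitoyltransferase that admits long-chain fatty acids to mitochondrial oxidation. The age of the mice, the allele and the Cre driver are not given in the sources used here. The title of the study puts the question of how loss of this enzyme in the liver bears on plasma cholesterol. Expression is given as CPM, the count relative to the TMM-scaled library total, and a gene is called where edgeR's quasi-likelihood test gives a Benjamini-Hochberg adjusted p under 0.05 over the 14488 genes tested (the edgeR adjusted p).

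Serine is made from the glycolytic intermediate 3-phosphoglycerate by PHGDH, PSAT1 and PSPH in turn. The serine hydroxymethyltransferases, SHMT1 in the cytosol and SHMT2 in mitochondria, convert serine to glycine and load the freed carbon on tetrahydrofolate. MTHFD2 and MTHFD1L carry that carbon to formate inside mitochondria, ALDH1L2 oxidises it there to carbon dioxide, and MTHFD1 takes up formate in the cytosol for purine and thymidylate synthesis. Adult liver is known for high activity of the folate and methionine enzymes, whereas PHGDH, PSAT1 and MTHFD2 are best known from proliferating cells and as targets of the stress factor ATF4.

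Libraries held 14721601 to 24618230 counts, and libraries of 1 group correlated at 0.968 to 0.986 in log2 CPM across genes. Cpt1a stood at 487 ± 83.2 CPM in fasted control and 101 ± 17.3 CPM in fasted LKO livers, and at 457 ± 137 and 54.2 ± 16.6 CPM in the refed groups (SD, n = 4). All 8 hepatocyte markers passed the filter on low counts, and their summed level was 65772 to 94992 CPM. The labels name no batch, and nothing says that the libraries of a group came from separate litters or cages, so the tests measure the spread between these libraries.

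The 9 transcripts fell into tiers. Levels between genes were compared as TPM, which divides by gene length before scaling each library to one common sum. Shmt2 was the most abundant at a median of 224 TPM over the 16 libraries, from 165 to 303. Shmt1 followed at 114 TPM (81.5 to 133) and Mthfd1 at 81.1 TPM (53.3 to 96.3). These 3 genes lay above 91.2% to 96.5% of the genes tested and together made up 97.0% to 99% of the summed TPM of the 9 enzymes in each library.

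The next tier was Psph at a median of 3.21 TPM (2.32 to 4.76), Mthfd1l at 1.73 TPM (0.903 to 3.89), Mthfd2 at 1.07 TPM (0.193 to 2.03) and Psat1 at 0.609 TPM (0.112 to 1.51). Phgdh, at 0.127 TPM (0 to 0.384), and Aldh1l2, at 0.0317 TPM (0 to 0.0684), had at most 8 and 4 counts in a library and did not pass the filter, so that 7 of the 9 enzymes were tested. Each of Shmt2, Shmt1, Mthfd1 and Psph exceeded the next gene in 16 of 16 libraries. The order of Mthfd1l over Mthfd2 held in 15 libraries, of Mthfd2 over Psat1 in 13, of Psat1 over Phgdh in 15 and of Phgdh over Aldh1l2 in 14. The ranges of neighbouring genes overlapped from Psph downwards, and those of Shmt1 and Mthfd1 overlapped too.

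**Figure D1:**
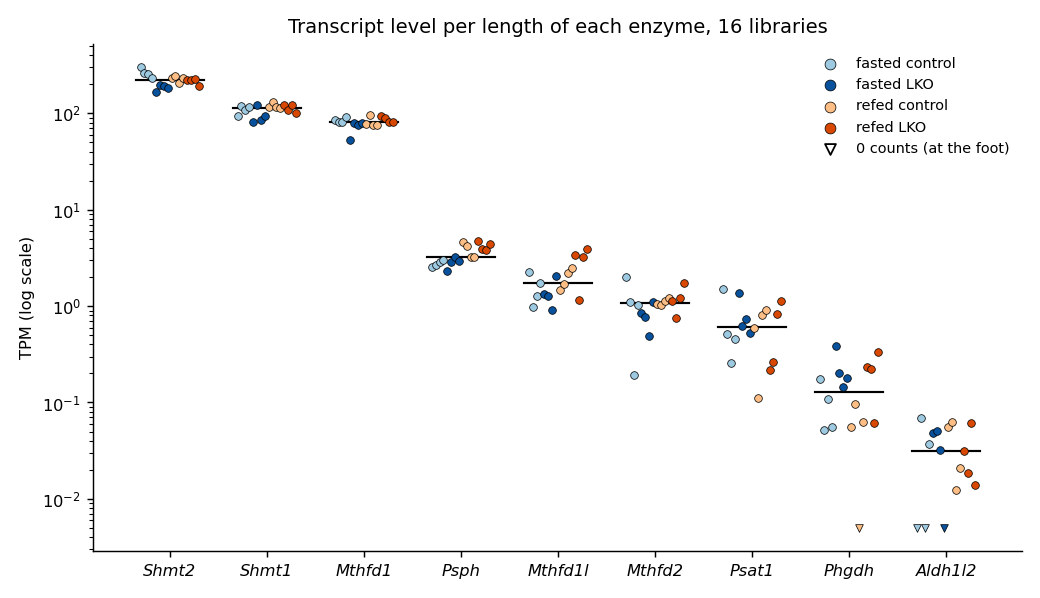
Level per gene length in TPM (log axis) of the 9 enzymes, 1 point per library coloured by group, with the median over 16 libraries as a line; triangles at the foot mark libraries with 0 counts. Shmt2, Shmt1 and Mthfd1 sit between 53.3 and 303 TPM, and the other genes at 4.76 TPM or below.

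The pair of serine hydroxymethyltransferases catalyses the same reaction in different compartments, and their genes start from unlike sequence. Shmt2 (ENSMUSG00000025403) lies on chromosome 10 from 127352992 to 127358313 on the minus strand, and Shmt1 (ENSMUSG00000020534) on chromosome 11 from 60678930 to 60702544 on the minus strand (deposited coordinates, build mm39 per the submitters' processing notes). The last 80 bases before each start site are shown because Shmt2, Psph and Mthfd1l are the enzymes called in a comparison and Shmt1 is the partner of Shmt2. They are RefSeq promoters of build GRCm38.p6, read 5′ to 3′ on the strand of the gene, at chr10:127522445-127522524 for Shmt2, chr11:60811266-60811345 for Shmt1, chr5:129787254-129787333 for Psph and chr10:3972995-3973074 for Mthfd1l (plus strand, the others minus), with capitals for a match to the motif of the mitochondrial gene regulator NRF1.
Shmt2: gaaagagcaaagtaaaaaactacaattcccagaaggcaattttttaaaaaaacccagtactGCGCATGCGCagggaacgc
Shmt1: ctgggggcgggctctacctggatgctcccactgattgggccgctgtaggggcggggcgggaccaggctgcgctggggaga
Psph: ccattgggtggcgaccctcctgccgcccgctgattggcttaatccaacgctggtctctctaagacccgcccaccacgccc
Mthfd1l: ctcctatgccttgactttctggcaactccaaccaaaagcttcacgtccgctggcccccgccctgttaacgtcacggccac
The Shmt2 stretch has a GC content of 41.2%, against 72.5% in Shmt1, 65% in Psph and 58.8% in Mthfd1l.

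Promoter windows of 300 bases, 250 before and 50 after the start, were present for 8 of the 9 enzymes, all but Aldh1l2. They were searched on both strands for the NRF1 motif (GCGC, any base, TGCGC), for TGATGNAA, the core of the element bound by C/EBP and ATF factors, and for the E-box CACGTG, motifs that do not contain each other. Shmt2 alone had a match, to the NRF1 motif, beginning 19 bases before the start site. Of 32817 RefSeq windows, 4.59% held the NRF1 motif, 3.97% TGATGNAA and 7.15% CACGTG. A match is a description of the letters, and its absence says nothing of a factor.

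The first comparison asked how the genotypes differed after the fast. Shmt2 was lower in LKO livers, to 0.668 of the control level, and was the only enzyme of the 7 tested that was called. The other enzymes of the abundant tier lay on the same side without passing, and the serine synthesis genes showed no called difference. Of all genes tested 12.2% were called, 5.75% as higher and 6.48% as lower, so 1 call among 7 enzymes is near the share of genes at large. The median log2 fold change of the 7 enzymes was −0.27, against 0.02 over all genes, and 1 of the 7 was above 0.

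In fasted control livers (S40 to S43) Shmt2 stood at 430, 370, 375 and 322 CPM, and in fasted LKO livers (S44 to S47) at 215, 271, 276 and 237 CPM. Every LKO library was below every control library. The group means were 374 ± 44 and 250 ± 29.2 CPM (SD, n = 4), a log2 fold change of −0.58 (SE 0.11, 95% interval −0.82 to −0.34, edgeR adjusted p = 0.00365). Under the 15 alternative settings tried the estimate ran from −0.65 to −0.51 and the adjusted p from 4.17e-05 to 0.0175. The authors' deposited table gave −0.59 with an adjusted p of 1.39e-04. Shmt2 overlaps Ndufa4l2 on the other strand by 32 bases, and that gene had 15 to 49 counts a library against 3811 to 8656 for Shmt2.

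Mthfd1, the cytosolic enzyme with 3 activities that takes up formate (chromosome 12 from 76302072 to 76366577, plus strand), held 174, 164, 170 and 181 CPM in fasted control and 99, 159, 154 and 148 CPM in fasted LKO. The groups did not overlap, as was so for 16.9% of all genes, and S44 was far below the other three. The log2 fold change was −0.30 (SE 0.14, 95% interval −0.59 to −0.01) and did not pass (edgeR adjusted p = 0.169). Shmt1 held 167, 212, 196 and 202 CPM in fasted control and 132, 212, 153 and 155 CPM in fasted LKO, where S45 lay inside the control range. Its log2 fold change of −0.26 (SE 0.13) did not pass (edgeR adjusted p = 0.211), but was −0.41 and did pass without S45 (edgeR adjusted p = 0.0187).

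Because only Shmt2 passed, its level was also set against its cytosolic partner within each library, a ratio chosen after the values were seen and given without a test. The ratio of Shmt2 to Shmt1 in TPM was 3.22, 2.17, 2.39 and 1.99 in fasted control and 2.03, 1.60, 2.25 and 1.91 in fasted LKO. The ranges overlapped, with S40 highest. In the refed groups it was 1.79 to 2.08 in control and 1.84 to 2.07 in LKO livers. The ratio of Shmt2 to Mthfd1 was 3.11 ± 0.411 in fasted control and 2.60 ± 0.354 in fasted LKO (SD, n = 4), again with overlap.

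The summed level of the 8 hepatocyte markers moved with Shmt2 in this comparison, though its members did not all move one way. The sum was 79941 to 89427 CPM in fasted control and 65772 to 76168 CPM in fasted LKO, without overlap. Alb, which was not called (edgeR adjusted p = 0.135), made up most of the sum, at means of 48203 and 39508 CPM. Of the 8 markers 3 fell, against 6.48% of all genes: Glul (−0.84), Serpina1c (−0.62) and Ttr (−0.59), with edgeR adjusted p of 0.00453, 0.0431 and 0.0181. None rose, and of the 5 not called Apoa1 was at 0.37 (11046 CPM in control, 14275 CPM in LKO, edgeR adjusted p = 0.149), while Tat, Cyp2f2, Alb and Cyp2e1 were at −0.51, −0.36, −0.29 and −0.14. In bulk liver, fewer cells of a type and less RNA per cell cannot be told apart. The part of the hepatocyte share in the fall of Shmt2 was not tested. Marker sums of adipocytes (5 genes, 1 tested, Cfd, which fell by 3.45 on the log2 scale, edgeR adjusted p = 0.0182) and of plasma cells (5 genes, 3 tested, Jchain higher at 3.35 and Xbp1 lower at −0.36, edgeR adjusted p = 3.32e-04 and 0.0462) did not overlap either. They were 9.81 to 58.1 against 0.448 to 9.63 CPM and 496 to 526 against 398 to 491 CPM, control first, and their part in the result was not tested. Cfd made up most of the adipocyte sum, at means of 34.4 and 3.24 CPM. Xbp1 (248 and 193 CPM) and Sdc1 (257 and 246 CPM) made up most of the plasma cell sum. That sum was lower in LKO livers, while Jchain went from 1.78 to 18.4 CPM. Of all genes in this comparison, 6.48% fell and 5.75% rose. Alas2, 1 of 5 red blood cell markers, fell (−1.04, edgeR adjusted p = 4.99e-04) and Dcn, 1 of 8 stellate cell or fibroblast markers, rose (0.36, edgeR adjusted p = 0.0413). The sums of these lists overlapped, at 383 to 1264 against 300.3 to 520.2 CPM and 160 to 289 against 182 to 289 CPM, control first, and their part was not tested either. The 8 macrophage markers, with 0 called, summed to 249.5 to 439 CPM in fasted control and 281 to 417 CPM in fasted LKO. The 5 cholangiocyte markers, with 0 called, summed to 33.3 to 56.4 CPM and 33.5 to 80.8 CPM, control first. S44 had the lowest hepatocyte sum (65772 CPM) and the highest cholangiocyte sum (80.8 CPM) of the 16 libraries, and the part of this in its enzyme levels was not tested.

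Psph, the phosphatase that completes serine synthesis (chromosome 5 from 129842622 to 129864513, minus strand), was nearly level between the fasted genotypes, at 5.48 ± 0.384 CPM in control and 5.38 ± 0.923 CPM in LKO (SD, n = 4). The log2 fold change was −0.03 with a 95% interval from −0.37 to 0.32. The intervals of the scarcer genes were wide: Mthfd1l −0.27 (−0.96 to 0.42), Mthfd2 −0.54 (−1.44 to 0.37) and Psat1 0.17 (−1.08 to 1.42), with edgeR adjusted p of 0.648, 0.462 and 0.893.

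**Figure D2:**
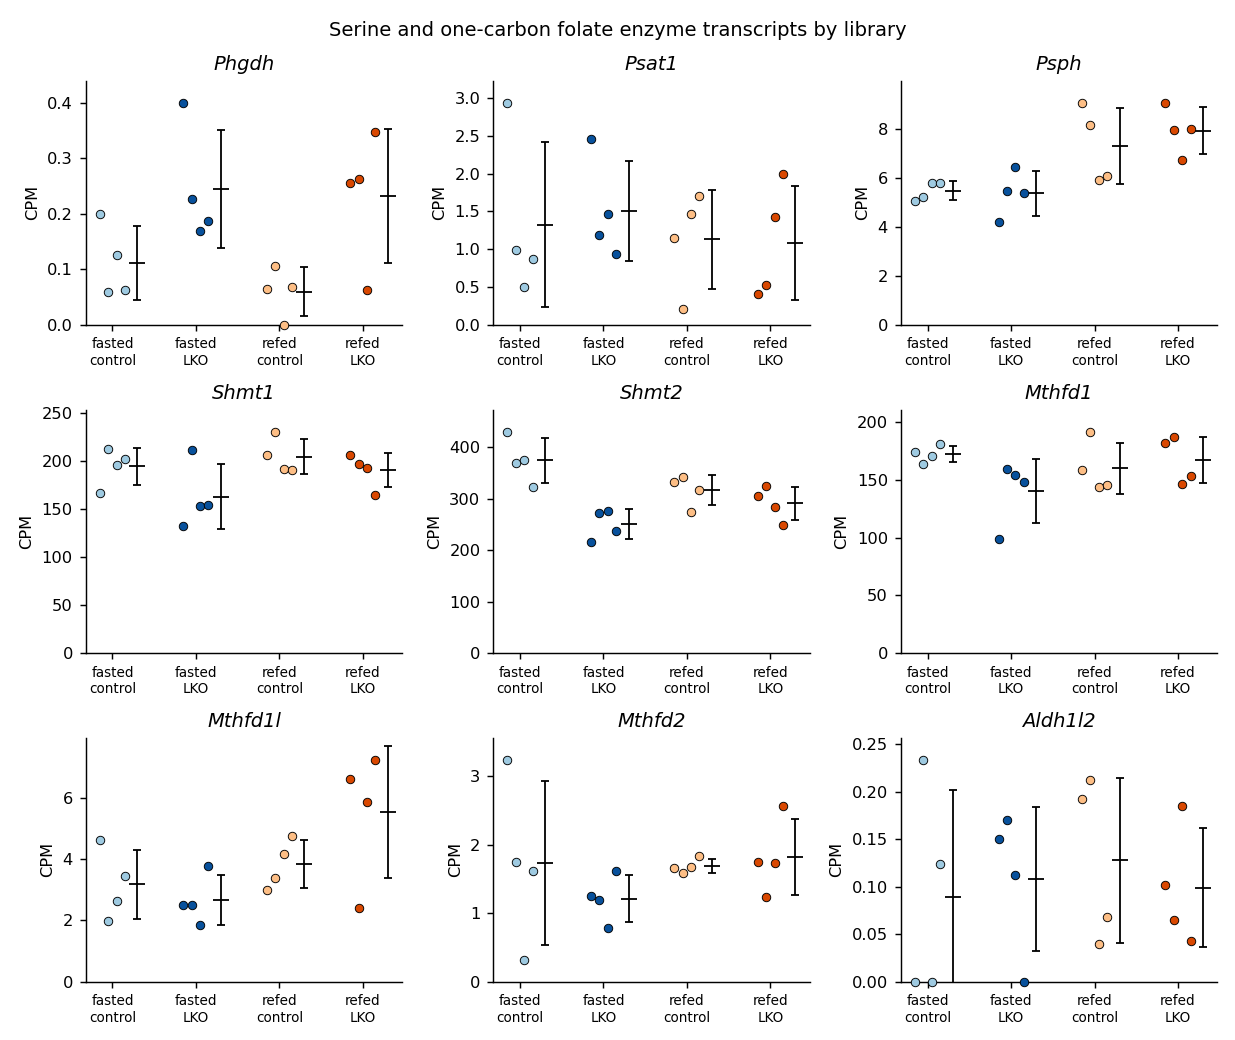
CPM of each enzyme in the 4 groups, 1 point per library, with the group mean and SD (n = 4) as the bar to the right; each panel starts at 0, where the SD bar of Aldh1l2 in fasted control is cut off. The fasted LKO libraries lie below all fasted control libraries for Shmt2 (215 to 276 against 322 to 430 CPM), and the refed libraries lie above the fasted ones for Psph within each genotype.

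The same comparison in the refed state gave 0 calls among the 7 enzymes, where 3.63% of all genes were called (2.28% higher, 1.35% lower). It gave 0 enzymes at an unadjusted p under 0.05, against 2672 of all 14488 genes. DESeq2 and limma-voom also gave 0 calls. Shmt2 held 332, 342, 275 and 317 CPM in refed control and 304, 325, 284 and 249 CPM in refed LKO. The ranges overlapped, and the log2 fold change was −0.12 (SE 0.11, 95% interval −0.36 to 0.12, edgeR adjusted p = 0.619). Shmt1 at −0.10 (−0.37 to 0.16), Mthfd1 at 0.06 (−0.22 to 0.35) and Psph at 0.12 (−0.21 to 0.45) were as close. The widest gap was that of Mthfd1l, at 3.83 ± 0.783 CPM in control and 5.53 ± 2.15 CPM in LKO livers (SD, n = 4; log2 fold change 0.54, edgeR adjusted p = 0.374).

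Whether the effect of Cpt1a loss differed between the states was tested as an interaction, the refed effect minus the fasted effect. None of the 7 enzymes passed, in a contrast where 0.538% of all genes were called (0.311% higher, 0.228% lower). For Shmt2 the difference was 0.46 (SE 0.16, 95% interval 0.12 to 0.80, unadjusted p = 0.0108, edgeR adjusted p = 0.161). Shmt2 was the only enzyme at an unadjusted p under 0.05, as were 2397 of all 14488 genes. DESeq2 and limma-voom gave 0 calls here too. The fall of Shmt2 in the fasted state is thus not shown to be absent from the refed state. The estimates of the others were 0.81 for Mthfd1l (−0.14 to 1.76), 0.66 for Mthfd2 (−0.60 to 1.91), 0.36 for Mthfd1 (−0.04 to 0.77), 0.15 for Shmt1 and Psph, and −0.20 for Psat1. The difference was above 0 in 6 of the 7, with a median of 0.36 against −0.01 over all genes.

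Refeeding was compared with the fast within each genotype. In control livers 0 of the 7 enzymes were called, against 15.4% of all genes (7.79% higher, 7.65% lower), and DESeq2 and limma-voom gave 0 as well. At an unadjusted p under 0.05 there were 2, Psph and Shmt2, against 4343 of all 14488 genes. In LKO livers Psph and Mthfd1l rose, 2 of 7 against 18.1% of all genes (9.28% higher, 8.78% lower), and none fell. The log2 fold changes of Shmt2, Shmt1 and Mthfd1 lay between −0.24 and 0.26 in both genotypes, and none was called. The comparisons of refeeding share their libraries with the genotype comparisons above, fasted LKO libraries among them.

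Psph held 5.06, 5.25, 5.81 and 5.81 CPM in fasted control and 9.07, 8.18, 5.93 and 6.11 CPM in refed control livers. Fasted LKO livers held 4.19, 5.49, 6.45 and 5.41 CPM and refed LKO livers 9.06, 7.98, 6.74 and 8.01 CPM. In both genotypes every refed library was above every fasted library. Groups that did not overlap, in either direction, were seen for 20.4% of all genes in control and 20.6% in LKO livers. The log2 fold change was 0.57 in LKO (SE 0.16, 95% interval 0.23 to 0.90, edgeR adjusted p = 0.0210) and 0.42 in control (SE 0.16, 0.08 to 0.75, edgeR adjusted p = 0.0893). The difference between the genotypes was 0.15 (−0.33 to 0.63, edgeR adjusted p = 0.780). The call in LKO was lost without S44 (edgeR adjusted p = 0.0689) or without S52 (0.0704), and the authors' deposited table gave 0.57 with an adjusted p of 0.0211.

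Psph overlaps Cct6a, a chaperonin subunit gene, on the other strand by 452 bases. Cct6a had 1436 to 3705 counts a library against 84 to 185 for Psph, and the libraries were made with dUTP, which marks strand, but whether the counting used it is not given in the sources used here. Cct6a rose on refeeding in control (0.49, edgeR adjusted p = 0.00736), was at 0.27 in LKO (0.0952), and was higher in fasted LKO than in fasted control (0.40, 0.0220), where Psph stood at −0.03. The part of Cct6a reads in the counts of Psph was not tested.

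Mthfd1l, the mitochondrial enzyme that releases formate (chromosome 10 from 3923118 to 4117081, plus strand), held 2.50, 2.49, 1.85 and 3.79 CPM in fasted LKO and 6.60, 2.42, 5.87 and 7.23 CPM in refed LKO livers. Of the 4 refed libraries, S53 stayed within the fasted range and the other three were above it. The log2 fold change was 1.07 (SE 0.32, 95% interval 0.40 to 1.74, edgeR adjusted p = 0.0266), on 33 to 167 counts a library. The call was lost without S44 (edgeR adjusted p = 0.0639), S45 (0.0545), S46 (0.0755), S52 (0.0746), S54 (0.0504) or S55 (0.0884), and with only the 2 LKO groups in the fit (0.0511). In control livers the fold change was 0.26 (−0.41 to 0.93, edgeR adjusted p = 0.619), from 4.62, 1.98, 2.65 and 3.46 CPM fasted to 3, 3.40, 4.18 and 4.75 CPM refed.

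Proliferation markers, as a sum, moved with these rises in refed LKO livers, though not all of them rose. The summed level of the 8 markers was 37.9 to 88.1 CPM in refed LKO against 25.9 to 29.3 CPM in fasted LKO. In control livers it was 25.0 to 28.2 CPM fasted and 20.7 to 29.8 CPM refed, while Psph was higher in every refed than in every fasted control library. Of the 7 markers tested, 4 rose on refeeding in LKO: Mcm2 (1.75), Top2a (2.07), Pcna (0.63) and Cdk1 (1.64), with edgeR adjusted p of 3.24e-04, 0.0103, 0.0211 and 0.0275. Of all genes, 9.28% rose there. Ccna2 (0.72), Birc5 (0.24) and Mki67 (−0.20) were not called, with edgeR adjusted p of 0.27, 0.768 and 0.777. Pcna and Mcm2 made up most of the sum, at means of 25.1 and 20.1 CPM in refed LKO livers. In S52, S53, S54 and S55 the marker sums were 88.1, 37.9, 38.9 and 54.5 CPM, beside 6.60, 2.42, 5.87 and 7.23 CPM of Mthfd1l. S53 and S54 had nearly the same marker sum and unlike Mthfd1l, and the highest Mthfd1l was in S55. The part of proliferating cells in the levels of Psph and Mthfd1l was not tested.

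**Figure D3:**
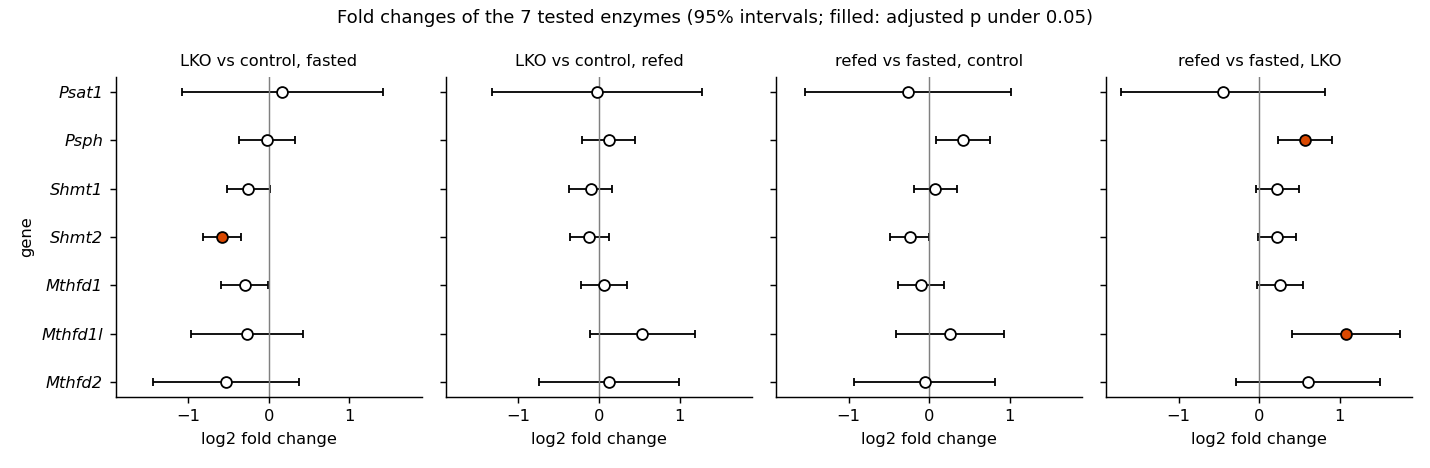
Log2 fold changes (points) with 95% intervals for the 7 tested enzymes in the 4 group comparisons; filled points have an edgeR adjusted p under 0.05. Shmt2 is filled in fasted LKO against control (−0.58), and Psph (0.57) and Mthfd1l (1.07) in refed against fasted LKO; the intervals of Psat1 and Mthfd2 are the widest.

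Among the abundant enzymes on refeeding, Shmt2 was at −0.24 in control (−0.48 to 0.00, edgeR adjusted p = 0.161) and at 0.22 in LKO livers (−0.02 to 0.46, 0.204). Mthfd1 was at −0.11 in control and 0.26 in LKO, and Shmt1 at 0.07 and 0.23, with edgeR adjusted p of 0.635, 0.214, 0.736 and 0.247. Shmt1 passed in LKO without S45 (0.38, edgeR adjusted p = 0.0232).

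The scarcest tested genes, Psat1 and Mthfd2, overlapped between all 4 groups. Psat1, the aminotransferase of serine synthesis (chromosome 19 from 15882042 to 15924701, minus strand), held 2.93, 0.992, 0.506 and 0.865 CPM in fasted control and 2.45, 1.19, 1.46 and 0.932 CPM in fasted LKO. In the refed groups it held 1.15, 0.212, 1.47 and 1.70 CPM in control and 0.409, 0.523, 1.42 and 1.99 CPM in LKO. These levels rest on 4 to 59 counts a library, with S40 and S44 the highest of the fasted groups. Mthfd2, the mitochondrial dehydrogenase and cyclohydrolase (chromosome 6 from 83282673 to 83302890, minus strand), held 3.23, 1.75, 0.316 and 1.61 CPM in fasted control livers and 1.25, 1.19, 0.785 and 1.62 CPM in their LKO counterparts. After refeeding it held 1.66, 1.59, 1.67 and 1.83 CPM in control and 1.74, 1.24, 1.73 and 2.56 CPM in LKO livers. S40 had the highest Psat1, Mthfd2 and Mthfd1l of the fasted control group and the lowest Shmt1.

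Phgdh, the entry enzyme of serine synthesis (chromosome 3 from 98220486 to 98247306, minus strand), was close to absent. Summed over 4 libraries, fasted livers had 8 counts in control and 18 in LKO mice, and refed livers 4 and 18, with exact 95% Poisson intervals of 3.5 to 15.8, 10.7 to 28.4, 1.1 to 10.2 and 10.7 to 28.4 that cover counting error only. Single libraries held 1 to 4, 3 to 8, 0 to 2 and 1 to 8 counts, so the genotypes overlapped in both states. A fit with no filter gave a log2 fold change of 1.07 (SE 0.70, edgeR adjusted p = 0.468) for fasted and 1.97 (SE 0.77, unadjusted p = 0.0182, edgeR adjusted p = 0.257) for refed LKO against control, and neither passed. Aldh1l2 (chromosome 10 from 83323314 to 83370004, minus strand) had 6, 8, 9 and 7 counts over the 4 libraries of the groups in the same order, and 3 of the 16 libraries had none. It overlaps Nopchap1 on the other strand by 1056 bases, which had 179 to 394 counts a library.

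The neighbouring pathways were read from gene lists. Among the other enzymes of folate use, Aldh1l1, the cytosolic counterpart of Aldh1l2 that oxidises formyl-folate, fell in fasted LKO from 1003 ± 167 to 527 ± 150 CPM (SD, n = 4), a log2 fold change of −0.93 with SE 0.24 (edgeR adjusted p = 0.0176). The groups did not overlap, which held for 16.9% of all genes. Of 4 folate carriers tested, only Slc46a1, the proton-coupled folate transporter, fell (−0.43, edgeR adjusted p = 0.0141), where 6.48% of all genes fell. Aldh1l1 was at −0.60 in the refed state without passing (edgeR adjusted p = 0.178), and its interaction did not pass either (0.654).

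Enzymes that feed or drain the folate pool through glycine and methyl groups held further calls in the fasted state. Of all genes tested, 12.2% were called there. Sardh, which oxidises sarcosine in mitochondria and passes the carbon to folate, fell from 1514 ± 152 to 898 ± 164 CPM (SD, n = 4; −0.76, SE 0.15, edgeR adjusted p = 0.00367). Pipox, which oxidises pipecolic acid and sarcosine in peroxisomes, fell by 0.64 on the log2 scale (edgeR adjusted p = 0.0203). It was the only call among 13 genes of serine and glycine transport and use. In the methionine cycle list 3 of 11 fell, against 6.48% of all genes, the methyltransferase genes Nnmt (−1.37), Gamt (−0.88) and Pemt (−0.46), and 1, Mat2b, rose (0.37), against 5.75%, with edgeR adjusted p of 0.0127, 0.0118, 0.0140 and 0.00467. Chdh, the first enzyme of choline oxidation, rose (0.45, edgeR adjusted p = 0.0348). Of the 6 choline and betaine oxidation genes, Chdh alone rose and Sardh alone fell. Glycine cleavage (4 genes) and purine synthesis (8 genes) had 0 calls with edgeR. They had 0 and 4 genes at an unadjusted p under 0.05, against 3868 of all 14488 genes tested.

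In the refed state the lists gave 2 calls in LKO against control outside the 9 enzymes. Of all genes tested, 3.63% were called in that comparison (2.28% higher, 1.35% lower). Tyms, thymidylate synthase, rose from 6.11 ± 0.870 to 10.3 ± 2.64 CPM (SD, n = 4; 0.74, SE 0.17, edgeR adjusted p = 0.0234). Slc1a5, a carrier of neutral amino acids that include serine and glutamine, rose from 2.42 ± 0.197 to 8.03 ± 1.35 CPM (SD, n = 4; 1.73, SE 0.27, edgeR adjusted p = 0.00275). It was the only call among 13 genes of serine and glycine transport and use. On refeeding in LKO livers Tyms (0.68) and Mtrr (0.58) rose, with edgeR adjusted p of 0.0104 and 0.0265. Of 8 purine synthesis genes 3 rose there and none fell, where 9.28% of all genes rose, Ppat (0.78), Gart (0.41) and Atic (0.37), with edgeR adjusted p of 0.00759, 0.00710 and 0.00941. The calls in LKO livers stood beside the higher proliferation marker sum given above. In control livers 1 of the 8 purine synthesis genes rose on refeeding and 0 fell, where 7.79% of all genes rose. Atic stood at 23.7 ± 2.49 CPM in fasted control and 30.3 ± 1.16 CPM in refed control livers (SD, n = 4).

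**Figure D4:**
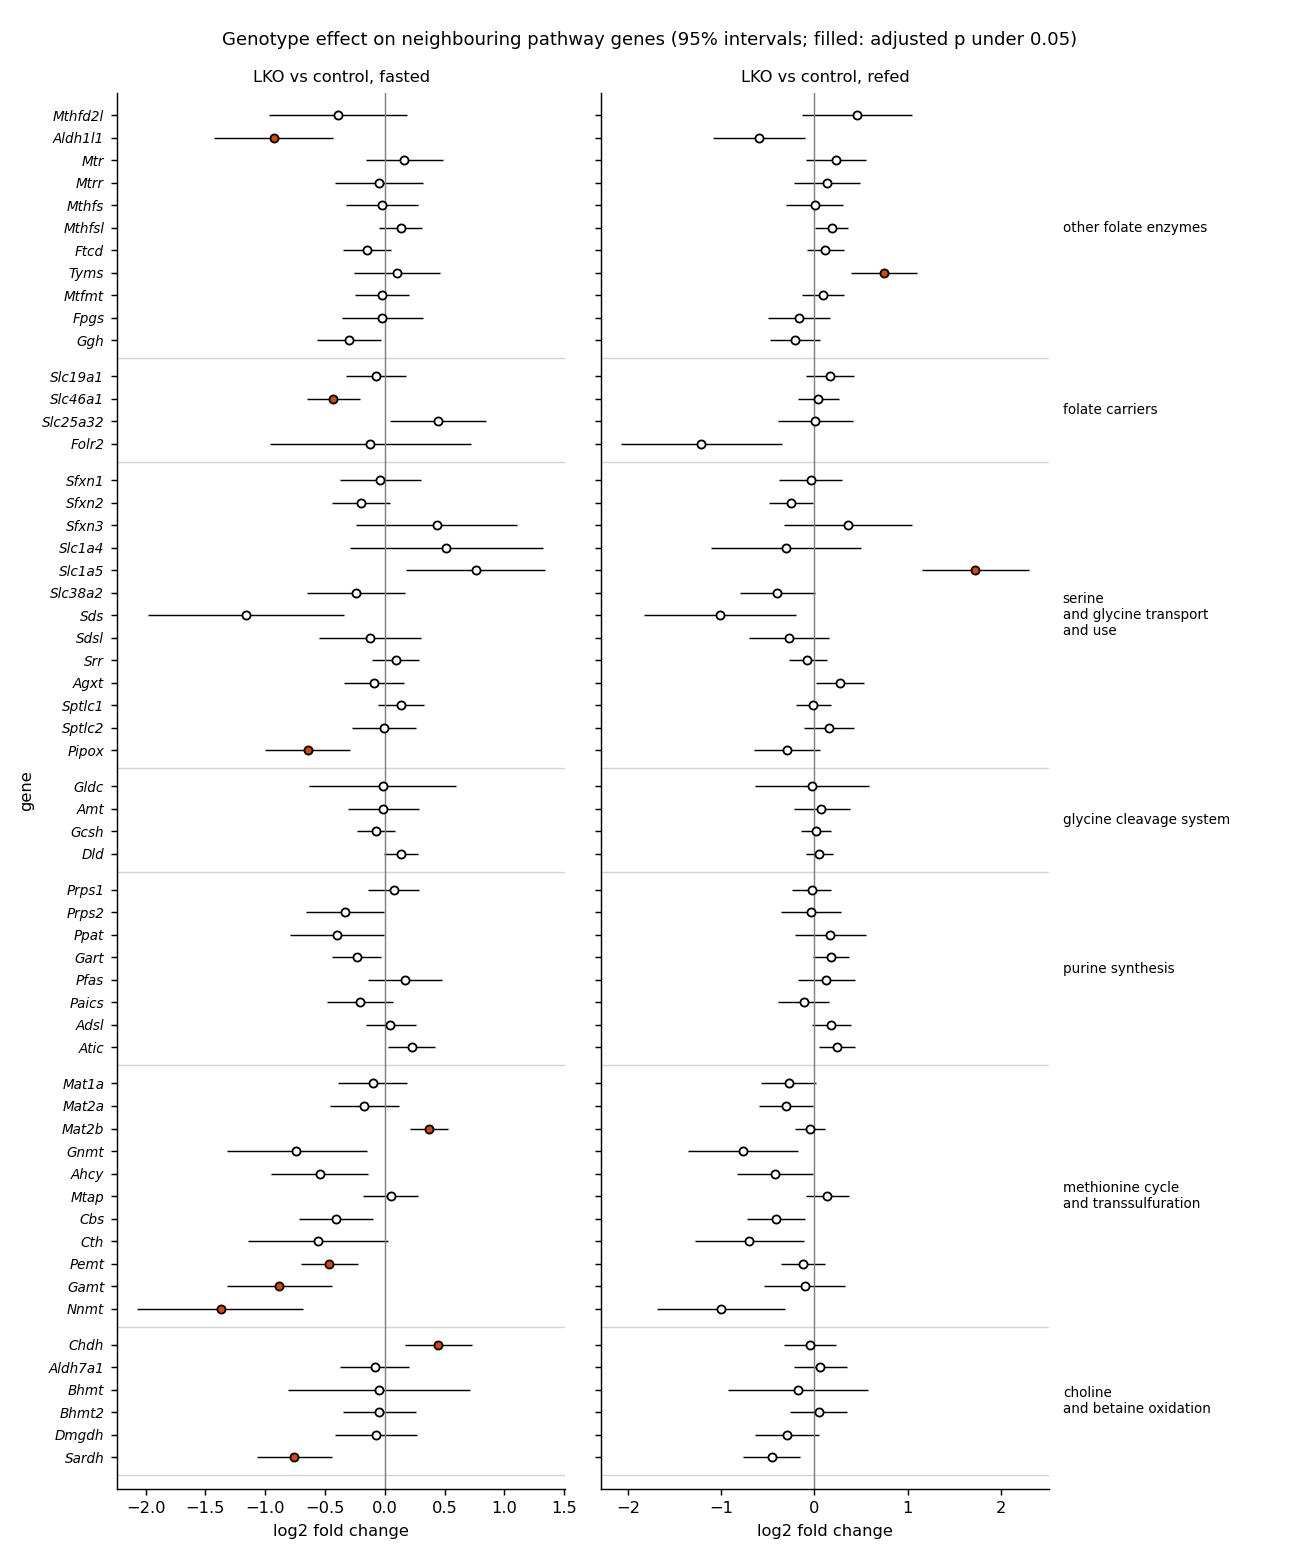
Log2 fold change of LKO against control with 95% intervals for reported genes of 7 neighbouring lists, fasted on the left and refed on the right (the axes differ in range); filled points have an edgeR adjusted p under 0.05. Filled points in the fasted panel include Aldh1l1 (−0.93) and Sardh (−0.76), and the refed panel has Tyms (0.74) and Slc1a5 (1.73).

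Genes of the ATF4 and amino acid response were read beside the serine genes. In fasted LKO, where 5.75% of all genes rose and 6.48% fell, 2 of 15 tested rose, Fgf21 (1.84) and Atf5 (0.98), and 2 fell, Chac1 (−2.14) and Cebpb (−0.76), with edgeR adjusted p of 0.0453, 0.0041, 0.0102 and 0.0481. In the refed state 0 were called, and 5 were at an unadjusted p under 0.05, against 2672 of all 14488 genes. Atf4 itself was at 0.04 and 0.22 (edgeR adjusted p = 0.913 and 0.473). On refeeding 6 of the 15 fell in control and 4 in LKO livers, where 7.65% and 8.78% of all genes fell, and none rose. Trib3, a pseudokinase gene induced by ATF4, fell by 2.29 and 2.43 on the log2 scale (edgeR adjusted p = 0.00153 and 4.33e-04). Over the same comparisons Psat1 was at −0.26 and −0.45 and Mthfd2 at −0.05 and 0.60, and none of these passed (edgeR adjusted p = 0.814, 0.654, 0.951 and 0.361).

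The genes most like each enzyme over the 16 libraries were found by Pearson's r of log2 CPM among protein-coding genes with a mean of at least 5 CPM. This is a description of libraries that share 4 groups and their depth, with no test. Of the 9 enzymes, Psat1, Mthfd2, Mthfd1l, Phgdh and Aldh1l2 lie below that level and could not be found as partners. For Shmt2 they were Igfbp4 (r = 0.928) and Ttc36 (0.921), for Mthfd1 Adh5 (0.926) and Ndufb4 (0.910), for Shmt1 Gsta3 (0.897) and Timd2 (0.888), and for Psph Ints1 (0.914) and Ptcd3 (0.903). The scarcer genes reached lower values, with Ctsz (0.844) and Slc12a4 (0.794) for Psat1, Acin1 (0.83) and Abca8b (0.800) for Mthfd2, and Samd9l (0.801) and Ppp1r8 (0.787) for Mthfd1l.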

How the data were processed

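Read counts per gene, not normalized, were deposited by the authors in 4 tables of 8 libraries. Alignment was with HISAT2 2.0.5 to mm39, per the submitters' processing notes, while the counting tool, its use of strand and the annotation are not given in the sources used here. Columns S40 to S55 were assigned to groups through the tables' group columns, each of which equals the mean of its libraries' normalized columns, and no replicate number could be attached. The tables were joined on gene identifier, with 0 differing counts. The authors' log2 fold changes and adjusted p-values were read from the deposited tables with the sign turned, and the authors' deposited gene lengths (an other unit, bases) served for TPM. The tables hold 64 other per-library columns. Of these, the normalized columns served only to assign libraries to groups, and the rest did not enter any step.

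The count model was edgeR 4.0.16 under R 4.3.3 (filterByExpr, TMM, glmQLFit over 4 groups, glmQLFTest), tested on simulated data, with limma 3.58.1 and DESeq2 1.42.0 as alternatives. SE is the log2 fold change divided by the square root of F, and 95% intervals use its t quantile. The 9 enzymes, the lists and the tests were chosen with earlier results of these data known. Genes named are the 9 enzymes, called list members (at most 4 a list and contrast), Cpt1a, called markers and the 2 nearest genes of each tested enzyme by r; overlapping genes, uncalled list members and the ratios were picked after their values were seen. Protein comparisons planned with the design were not run. Part of the folate list is not reported here.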

Additional observations from a re-analysis of the deposited data

How the results depend on the processing

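Of the 7 enzymes, the count called for fasted LKO against control was 1 and ran from 1 to 2 when 1 library was left out, the second gene being Shmt1 without S45. The count for refed against fasted LKO was 2, ran from 0 (without S44 or S52) to 2 in the same way, and was 1 when genes under a mean of 5 CPM were dropped, which removes Mthfd1l, and 1 with only the 2 groups in the fit. The counts of 0 in the other 3 contrasts stayed at 0 under every alternative run: RLE and upper quartile scaling, no filter, 5 CPM, DESeq2, limma-voom, the 2-group fit where it applies, and leaving out 1 library. No called fold change of an enzyme turned its sign, while that of Psat1 on refeeding in control, which was not called, was 0.51 without S40. The share of all genes called is less steady: the count was 1772 for fasted LKO against control (1048 without S44), 526 for refed (197 to 517 with 1 library left out, 924 with DESeq2), 2238 for refeeding in control (1220 without S40, 1365 without S50), 2616 in LKO (1795 to 2448), and 78 for the interaction (8 to 282 with 1 library left out, 197 at 5 CPM, 467 with DESeq2). No paired analysis was possible because the count columns carry no replicate numbers. Psat1, Mthfd2, Phgdh and Aldh1l2 rest on 0 to 65 counts a library, and how much of their spread is counting error was not tested.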
